A study of Mus musculus with 3 samples.

Results

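Genes that mark recruited and activated macrophages were read in 3 mouse liver samples, each expressing a different form of human YAP. The 10 genes, chosen by name, were Ccr2, Cx3cr1, Trem2, Gpnmb, Cd9, Lgals3, Cd68, Mmp12, Lyz2 and Ms4a7. Matching of RefSeq accessions gave 11 probes for 9 of the 10 genes, out of 55681 probes and 20284 symbols on the array. No probe was matched by accession to Cd68, a lysosomal glycoprotein of macrophages, and it was not analysed here, although a probe for it may carry another accession. Of the 11 probes, 10 were well above background on all 3 arrays, at least 1 for each of the 9 genes. The other was a Mmp12 probe that was not well above background on any array.

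The livers came from c57BL6/J mice at 2 days after hydrodynamic gene delivery, a rapid injection of plasmid into the tail vein, for which the methods name 8-week-old males. They expressed YAP (WT), the wild-type human protein, or the active mutants YAP (1SA) and YAP (2SA), with 1 array per group. YAP is the transcription coactivator that the Hippo kinases hold in the cytoplasm. All 3 groups had the injection, so the YAP (WT) liver was itself an injected liver that made human YAP. The vector carried a hepatocyte-specific enhancer and promoter, and YAP was therefore placed in hepatocytes and not in the macrophages whose genes are described. Whether 1 animal or several gave the RNA of an array is not in the labels. With 1 array per group no spread between animals could be estimated, no test was run, and a difference between constructs cannot be told apart from a difference between liver samples. In whole liver RNA, fewer cells of a type and less RNA per cell also cannot be told apart.

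Liver holds resident macrophages, the Kupffer cells, which line the sinusoids and take up particles and dying cells. After injury, monocytes enter from the blood through chemokine receptors such as Ccr2 and mature in the tissue. Macrophages that clear lipid and cell debris switch on a shared set of genes that includes Trem2, Gpnmb, Cd9 and Lgals3. Several of these genes, Cd9 and Lgals3 among them, are also made by other cells, including epithelial cells of the bile ducts.

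Intensity is the brightness of a spot as deposited. Differences are in log2 units, with every intensity first divided by the 75th percentile of the array it was on, which lay between 275.7 and 319.5. Each member probe was printed as 1 spot. Error is given as the SD of a difference that repeated spots of like brightness gave on the same arrays (spot SD), which leaves out the spread between animals. The hepatocyte markers Alb and Ttr, the main blood proteins made by liver, were bright on all arrays, with intensities of at least 333769 and 191922.

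Of the 9 measured genes, 8 were lower in YAP (1SA) liver than in YAP (WT) liver, against 50.3% of all genes, and 1, Ccr2, was higher (49.7%). The same 8 were higher in YAP (2SA) than in YAP (1SA) liver, against 45.6% of all genes, and Ccr2 was lower (54.4%). Both comparisons use the same YAP (1SA) array, so the second is not independent of the first. Between YAP (2SA) and YAP (WT) the members divided, with 5 higher (43.6% of all genes) and 4 lower (56.4%). The median difference of the 9 genes was -0.81 in YAP (1SA) and 0.19 in YAP (2SA) against YAP (WT), beside -0.002 and -0.03 over the 13626 genes measured on all 3 arrays. Between the mutants the median was 1.17 higher in YAP (2SA), beside -0.03 over all genes. At a 2-fold threshold, 4 of the 9 genes were lower in YAP (1SA) than in YAP (WT) (Ms4a7, Gpnmb, Mmp12 and Lgals3), against 1.14% of all genes. Against the same YAP (WT) array, 1 gene was at least 2-fold higher in YAP (1SA) (Ccr2, background 0.727%), 1 in YAP (2SA) (Cx3cr1, background 1.12%), and none was at least 2-fold lower in YAP (2SA), where 0.543% of all genes were. Between the mutants, 5 genes were at least 2-fold higher in YAP (2SA) (background 2.47%) and 1, Ccr2, was lower (background 1.12%). At 3-fold, 1 gene was higher in YAP (1SA) than in YAP (WT) (Ccr2, background 0.191%) and 1 lower (Ms4a7, background 0.213%), and none was higher (0.25%) or lower (0.147%) in YAP (2SA). Between the mutants, Cx3cr1 and Ms4a7 were at least 3-fold higher in YAP (2SA) (background 0.631%) and no gene of the 9 was lower (0.25%). The 9 genes were few and their choice was made with earlier results of these arrays known, so these counts describe the arrays only.

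The lowest array was largely shared, but the full order of the arrays was not. The YAP (1SA) array was the lowest of the 3 for 8 of the 9 genes, against 34.4% of all genes. YAP (WT) was the lowest for Ccr2 (23.6% of all genes) and YAP (2SA) for none (42.1%). Ms4a7, Gpnmb and Lgals3 were at least 2-fold lower in YAP (1SA) than on both other arrays (0.653% of all genes), and Ccr2 was at least 2-fold higher than on both (0.352%). The 4 genes Cx3cr1, Ms4a7, Lgals3 and Lyz2 were lowest on YAP (1SA) and highest on YAP (2SA), against 20% of all genes. Among these, Cx3cr1, Ms4a7 and Lyz2 were below YAP (WT) in YAP (1SA) and above it in YAP (2SA) by more than 2 times the spot SD each time, as were 4.15% of all genes, and 6.68% were on opposite sides of YAP (WT) in either order. For the highest array the members divided. YAP (2SA) was highest for those 4, YAP (WT) for 4 (Trem2, Gpnmb, Cd9 and Mmp12) and YAP (1SA) for Ccr2. Over all genes the shares were 31.3% for YAP (2SA), 30.3% for YAP (WT) and 38.5% for YAP (1SA). Between YAP (WT) and YAP (2SA), the differences of Trem2 and Gpnmb were smaller than the spot SD and that of Mmp12 (-0.16) was close to it (0.12), so the order of these 2 arrays is not settled for them.

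**Figure D1:**
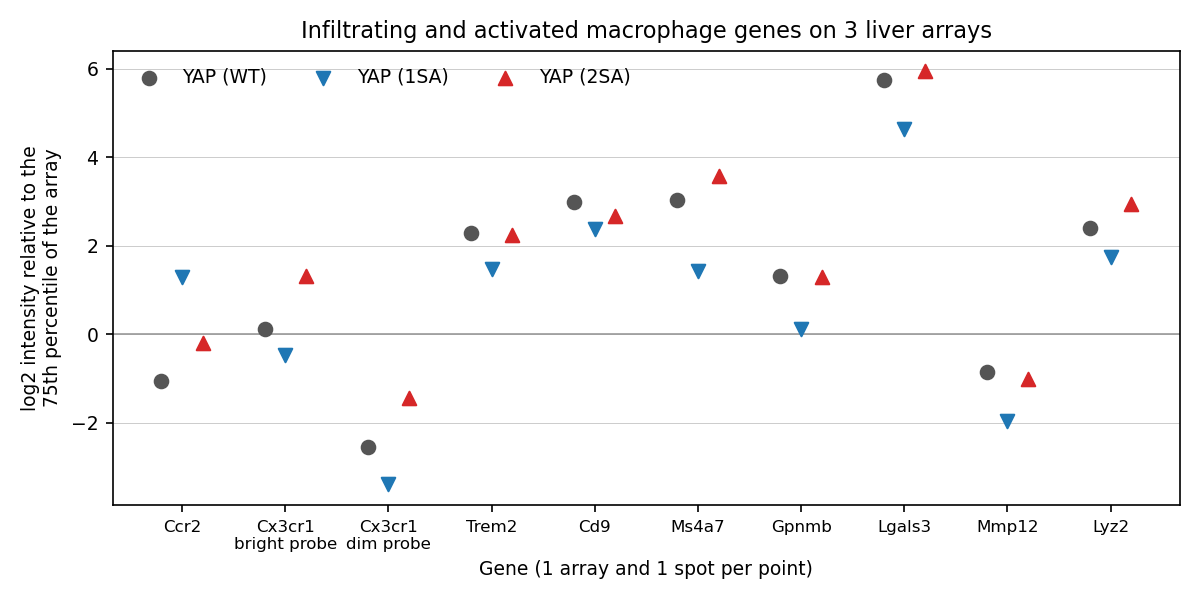
Normalised level (log2 intensity relative to the 75th percentile of the array, vertical axis) of the 10 measured probes of 9 genes on the YAP (WT), YAP (1SA) and YAP (2SA) arrays, with 1 array and 1 spot per point and so no error bars. The YAP (1SA) point is the lowest of the 3 for every probe but that of Ccr2, and levels of different genes are not comparable because each probe binds differently.

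The first role is recruitment from the blood. Ccr2 is the receptor for Ccl2 and related chemokines and marks classical monocytes that have just entered tissue. Its intensity was 140.9 on YAP (WT), 673.7 on YAP (1SA) and 279.0 on YAP (2SA). The YAP (1SA) value stood far above both others, a difference of 2.33 from YAP (WT) (spot SD 0.11), or 5.04-fold. Only 6 of the 13626 genes differed more in that direction. The YAP (2SA) value was 0.85 above YAP (WT) (spot SD 0.12).

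The Ccr2 value in YAP (1SA) liver came from 1 spot that lay in a bright patch of that array. A spot was counted as bright here when it stood at least 2-fold and 20 intensity units above both other arrays after scaling. Of its 6 nearest spots, 2 were bright on the YAP (1SA) array, with intensities of 416.5 and 141.3, while the same spots read 2.84 and 25.8 on YAP (WT) and 2.26 and 21.8 on YAP (2SA). Another spot, slightly more distant, read 49.4 on YAP (1SA), against 7.79 and 2.62. These spots belong to other probes. At least 2 bright spots among the 6 nearest occurred around 0.479% of the spots on this array, and 0.182% of spots were bright themselves as well. The median local background beside the Ccr2 spot was 17 on YAP (1SA), 16 on YAP (WT) and 16.5 on YAP (2SA). The part of the patch in the high Ccr2 value was not tested. No other member spot and no spot of the cell type gene lists below lay in such a patch on any array. Around the Ccr2 spot none of the 6 nearest was bright on the YAP (2SA) array, so its smaller difference there did not coincide with a patch. Without Ccr2, all 8 remaining genes were lower in YAP (1SA) than in YAP (WT), with a median of -0.96, and their median in YAP (2SA) was 0.085.

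**Figure D2:**
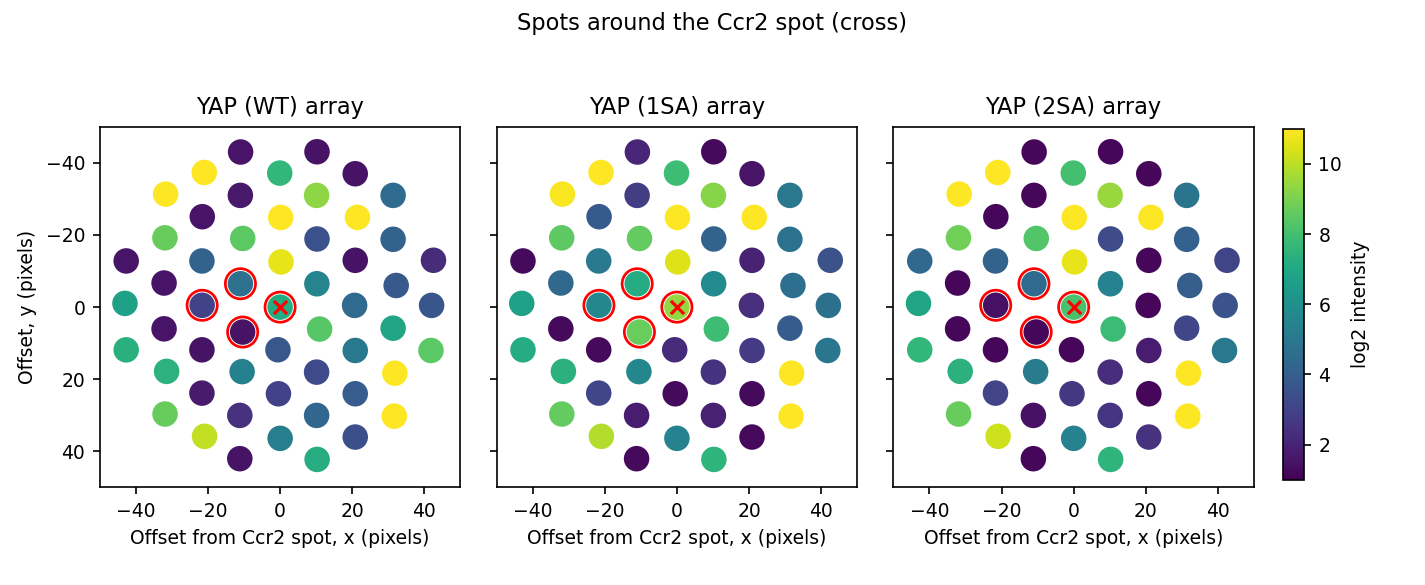
Intensity (colour, log2) of the spots around the Ccr2 spot (cross) on each of the 3 arrays, placed by distance from that spot in scanner pixels. Red rings mark the 4 spots that were at least 2-fold and 20 units brighter on YAP (1SA) than on both other arrays, and they lie side by side.

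Cx3cr1 is the receptor for the membrane-bound chemokine Cx3cl1 and marks patrolling monocytes and several tissue macrophages. Its brighter probe read 314.6 on YAP (WT), 199.9 on YAP (1SA) and 792.0 on YAP (2SA). The difference from YAP (WT) was -0.58 in YAP (1SA) (spot SD 0.12) and 1.20 in YAP (2SA) (spot SD 0.10). The dimmer probe, at another place on the array, read 50.3, 26.4 and 118.4, with differences of -0.85 (spot SD 0.24) and 1.10 (spot SD 0.17). Both probes gave the same order of arrays, and between the mutants they differed by 1.77 and 1.95. Cx3cr1 was the only member at least 2-fold above YAP (WT) in YAP (2SA), and 89 of all genes had a larger difference there.

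Of the chemokines that act on Ccr2, Ccl2, Ccl7 and Ccl12 were lowest in YAP (1SA) and highest in YAP (2SA), the order that 4 of the 9 members had. Ccl2 read 732.2 on YAP (WT), 359.8 on YAP (1SA) and 1781 on YAP (2SA). Its difference from YAP (WT) was -0.95 in YAP (1SA) and 1.15 in YAP (2SA). Ccl7 differed by -1.23 and 1.27 and Ccl12 by -0.98 and 1.07. Ccl12 was dim, at 36.1, 17.3 and 83.3, and no spot SD was worked out for the ligands. Each of these 3 ligands was thus about as far below YAP (WT) in one mutant as above it in the other, whereas the Ccr2 probe was above YAP (WT) in both. Ccl8 was lower in YAP (1SA) (-1.71), the lowest of the list of ligands and partners, and near YAP (WT) in YAP (2SA) (-0.13). Cx3cl1 read 51.7, 44.4 and 54.5, a narrow range beside that of its receptor. Csf1, the growth factor that macrophages need to survive, read 386.8, 333.0 and 2894, and its difference of 2.77 in YAP (2SA) was the highest of the list. This was the brightest of 3 Csf1 probes, and the others gave smaller differences in YAP (2SA) (1.65 and 1.76) and lower ones in YAP (1SA) (-0.97 and -0.98, against -0.14). The Csf1 receptor, Csf1r, differed by -0.05 and -0.01 in its brightest probe. Its dimmer probes differed by -0.10 and 0.09 and by 0.33 and 0.19. Of the 17 measured ligands, partners and growth factors, 15 were lower in YAP (1SA) than in YAP (WT) (50.3% of all genes), 3 of them at least 2-fold (1.14%). In YAP (2SA), 8 were higher (43.6% of all genes) and 9 lower (56.4%). At least 2-fold higher were 4 (Csf1, Ccl7, Ccl2 and Ccl12), against 1.12% of all genes. The highest difference in YAP (1SA) was that of Tfe3 (0.19), a lysosomal transcription factor, and the lowest in YAP (2SA) that of its relative Tfeb (-0.22). Csf2 was not well above background on any array.

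Trem2 is a receptor for lipids and cell debris that signals through the adaptor Tyrobp. It read 1426 on YAP (WT), 771.7 on YAP (1SA) and 1516 on YAP (2SA). The YAP (1SA) value was 0.81 below YAP (WT) (spot SD 0.08), and the YAP (2SA) value differed by -0.05, less than the spot SD of 0.08. Tyrobp was also lower in YAP (1SA) (-0.59), and its difference in YAP (2SA) was 0.12, with no spot SD worked out for it. The kinase Syk, which acts downstream of Tyrobp, differed by -0.64 and 0.03.

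Cd9 is a tetraspanin, a membrane organiser found on scar-associated macrophages and on many other cells. It read 2327, 1424 and 2029 on YAP (WT), YAP (1SA) and YAP (2SA), and was the only measured member below YAP (WT) by more than 0.20 in both mutants (-0.63, spot SD 0.09, and -0.33, spot SD 0.09). Ms4a7 is a membrane protein largely restricted to macrophages. It read 2395 on YAP (WT), 744.4 on YAP (1SA) and 3810 on YAP (2SA). Its level in YAP (1SA) was 3.05-fold below YAP (WT), a difference of -1.61 (spot SD 0.08), and 26 of all genes were lower still. In YAP (2SA) it was 0.53 above YAP (WT) (spot SD 0.07). Between the mutants Ms4a7 differed by 2.14, or 4.42-fold, the largest difference of any member in that comparison.

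Gpnmb is a glycoprotein of lysosomes and the cell surface that macrophages make when loaded with lipid or debris. It read 729.5, 302.0 and 789.7, with differences from YAP (WT) of -1.20 in YAP (1SA) (spot SD 0.10) and -0.02 in YAP (2SA) (spot SD 0.09). Lgals3, or galectin-3, is a sugar-binding protein that gathers at damaged membranes. It read 15628 on YAP (WT), 6850 on YAP (1SA) and 19591 on YAP (2SA), with differences of -1.11 (spot SD 0.07) and 0.19 (spot SD 0.07). For both genes the YAP (1SA) value stood apart and the other 2 arrays lay close together. Its secreted binding partner Lgals3bp differed by -0.51 and 0.01.

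The secreted enzymes followed. Mmp12 is the macrophage elastase, a protease that cuts elastin. Its measured probe read 162.7, 71.3 and 159.6, with differences of -1.11 (spot SD 0.15) and -0.16 (spot SD 0.12). The other Mmp12 probe read between 2.73 and 3.49 and gave no difference. Lyz2 is the lysozyme of macrophages, monocytes and neutrophils, an enzyme that cuts bacterial walls. It read 1528, 925.8 and 2457, with differences of -0.65 (spot SD 0.08) and 0.55 (spot SD 0.08). Lyz1, a close copy of Lyz2 whose RNA may bind the same probes, differed by -0.63 and 0.46, so the pair cannot be read as independent.

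**Figure D3:**
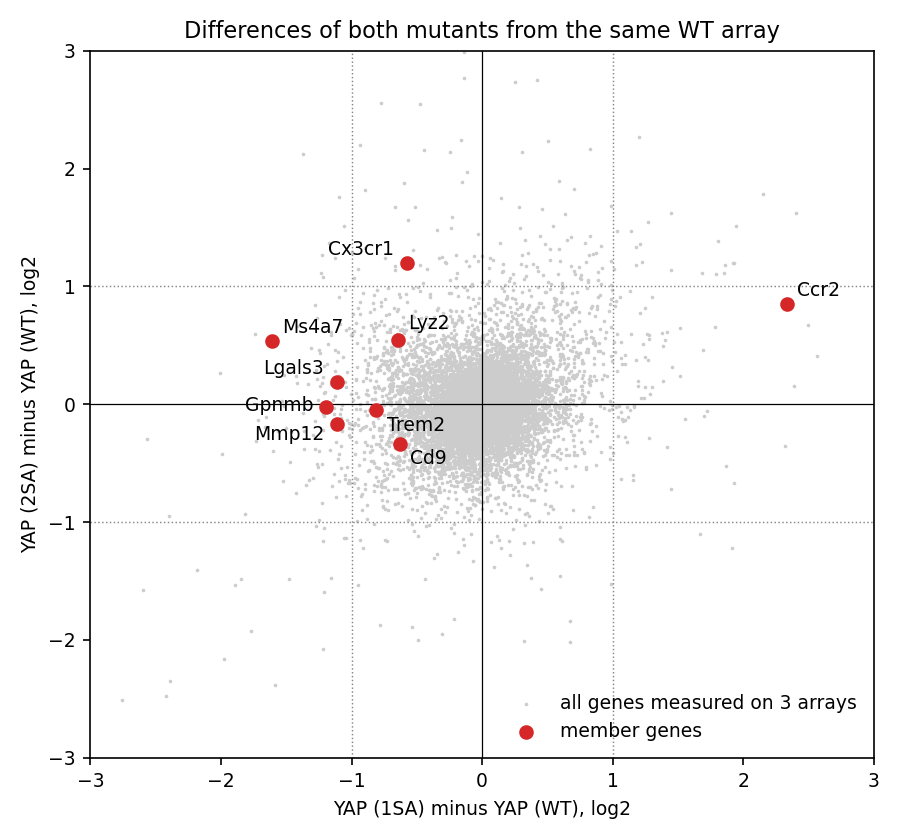
Difference of YAP (1SA) from YAP (WT) (horizontal, log2) against that of YAP (2SA) (vertical, log2) for the 9 measured members (red) and all 13626 genes measured on the 3 arrays (grey, of which 8 lie beyond the axes), with dotted lines at 2-fold. The other 8 members lie left of 0 and Ccr2 far right, and because both axes share the YAP (WT) array the shape of the grey cloud is not evidence of a shared response.

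As 8 of the measured members shared their lowest array, the 250 bases before annotated starts were searched for 4 motifs on both strands. All 10 listed genes were searched, including Ccr2, which did not share that lowest array, and Cd68, which was not measured. The windows, with the letters given 5′ to 3′ on the strand of the gene, are from RefSeq on build GRCm38.p6. The table held 12 windows for the 10 genes. The motifs were GAGGAA, the core bound by PU.1, the factor that sets macrophage identity, and TGANTCA, a loose form of the AP-1 site. The centre of TGANTCA (N) may be any letter. The others were GGAATG, the site of the TEAD factors that YAP binds, and CACGTG, an E-box of the lysosomal factors Mitf and Tfe3. None of these motifs contains another. Matches occurred in 3 of the 12 windows for PU.1, against 23.3% of all 32851 windows, and in 4 for the loose AP-1 form (6.75%). They occurred in 1 for TEAD (12.6%) and in none for the E-box (6.02%). The window of Cd68, to which no probe was matched by accession, is among those counted. It held 1 PU.1 core and 2 loose AP-1 matches. The windows of Ccr2, Cx3cr1, Gpnmb, Lgals3, Lyz2 and Cd9 held none of the 4 motifs. The 4 windows of measured members that held any are shown with the matches in capitals (TTCCTC is GAGGAA read on the other strand), to let the letters be read beside the values above. The Trem2 window (chr17:48346151-48346400, plus strand) held a PU.1 core 40 bases and a loose AP-1 match (TGAATCA) 9 bases before the start. The Ms4a7 window at the start inside the gene (chr19:11334696-11334945, minus strand) held a TEAD site 221 bases before that start. It also held a loose AP-1 match (TGATTCA) 81 bases before it, and the window at the other Ms4a7 start held none. The first Mmp12 window (chr9:7344147-7344396, plus strand) held a PU.1 core 86 bases before the start. The window at the other start (chr9:7347124-7347373, plus strand) held an AP-1 match (TGAGTCA) 44 bases before it. A match is a description of letters and shows no binding.
Trem2: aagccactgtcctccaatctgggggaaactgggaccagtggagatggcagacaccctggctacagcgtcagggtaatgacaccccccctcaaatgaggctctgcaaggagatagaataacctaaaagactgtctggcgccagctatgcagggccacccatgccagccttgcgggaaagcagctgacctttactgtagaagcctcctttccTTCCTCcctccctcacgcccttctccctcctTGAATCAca
Ms4a7, start inside the gene: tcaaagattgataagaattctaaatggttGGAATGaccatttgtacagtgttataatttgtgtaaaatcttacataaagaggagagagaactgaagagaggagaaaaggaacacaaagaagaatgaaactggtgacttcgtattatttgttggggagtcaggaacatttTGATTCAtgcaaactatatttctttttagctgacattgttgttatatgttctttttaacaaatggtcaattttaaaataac
Mmp12, first start: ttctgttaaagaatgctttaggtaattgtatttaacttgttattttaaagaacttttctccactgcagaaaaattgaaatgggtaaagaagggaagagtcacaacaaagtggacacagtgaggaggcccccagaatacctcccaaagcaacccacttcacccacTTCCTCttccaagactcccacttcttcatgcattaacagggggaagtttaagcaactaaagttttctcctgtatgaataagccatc
Mmp12, other start: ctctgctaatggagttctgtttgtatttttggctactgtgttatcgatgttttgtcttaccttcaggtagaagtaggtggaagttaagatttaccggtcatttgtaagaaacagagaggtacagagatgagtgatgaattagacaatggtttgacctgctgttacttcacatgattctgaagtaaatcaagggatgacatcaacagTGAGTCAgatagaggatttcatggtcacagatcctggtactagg

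General macrophage genes were mostly lower in YAP (1SA), as the members were. The 20 measured genes include the microglial and macrophage marker Aif1, the complement genes C1qa, C1qb and C1qc and the Fc receptor subunit Fcer1g. Of the 20, 18 were lower in YAP (1SA) than in YAP (WT) (50.3% of all genes), with a median of -0.58. None was 2-fold lower (1.14% of all genes). The lowest was Laptm5 (-0.83), a lysosomal protein of blood cells. In YAP (2SA), 14 were higher (43.6% of all genes) and 6 lower (56.4%), with a median of 0.14, and the highest was Spi1 (0.80), the gene of PU.1. The summed scaled intensity of the list (each gene's intensity divided by the 75th percentile of its array) was 303.3 on YAP (WT), 216.9 on YAP (1SA) and 329.0 on YAP (2SA). The members' median of -0.81 in YAP (1SA) therefore stood beside a smaller shift of macrophage genes in general, and the part of that shift in the members' values was not tested.

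Resident Kupffer cell genes were mostly lower in both mutants. Of 17 measured genes, 12 were lower in YAP (1SA) (50.3% of all genes) and 13 in YAP (2SA) (56.4%) than in YAP (WT). The medians were -0.31 and -0.50. Between the mutants the median of these genes was 0.34 lower in YAP (2SA) (-0.34), opposite in sign to the members' 1.17. Clec4f, the Kupffer cell lectin, read 3170 on YAP (WT), 4117 on YAP (1SA) and 1178 on YAP (2SA). Its difference was the highest of the list in YAP (1SA) (0.45) and, at -1.56, near the lowest in YAP (2SA). Marco, a scavenger receptor, was the lowest in both (-1.21 and -1.59). Timd4 (-0.36 and -0.97) and Vsig4 (0.07 and -0.90), both uptake receptors of Kupffer cells, were also lower in YAP (2SA). Hmox1, which breaks down haem, was the highest in YAP (2SA) (0.27). The defining genes Clec4f, Vsig4, Timd4 and Cd5l were measured on all arrays. The summed scaled intensity was 317.1, 250.8 and 203.9. In YAP (2SA), 5 of the 9 measured members were above YAP (WT) and 4 below it. Of these resident genes, 4 were above it and 13 below. Over all genes the shares were 43.6% and 56.4%. The difference between both lists was not tested.

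Blood monocyte genes were mostly lower in YAP (1SA) and higher in YAP (2SA), as Cx3cr1 was. Of 14 measured genes, 11 were lower in YAP (1SA) (50.3% of all genes), with a median of -0.41. In YAP (2SA) 12 were higher (43.6%), with a median of 0.44, and 4 were at least 2-fold higher (1.12%). F13a1, a coagulation factor subunit that monocytes make, read 53.2, 33.4 and 214.5, and its difference of 1.88 in YAP (2SA) was the highest of the list. S100a4, a calcium-binding protein of motile cells, read 411.9, 188.1 and 1295 (-1.05 and 1.52, with -0.60 and 1.38 from its dimmer probe), and Chil3, a lectin of classical monocytes, read 440.2, 191.1 and 1145 (-1.13, the lowest in YAP (1SA), and 1.24). The fourth gene at least 2-fold higher in YAP (2SA) was Nr4a1 (1.11), an immediate early gene that patrolling monocytes need, which was also the highest in YAP (1SA) (1.79). The lowest in YAP (2SA) was Ace (-0.22). No probe was matched to Ly6c2, and Ly6c1, a close copy that endothelium also makes, differed by -0.28 and 0.45, and by -0.13 and 1.06 in its dimmer probe. The summed scaled intensity of the list was 56.5, 46.4 and 79.2. Ccr2 belongs with these genes as a marker. Its 1 spot, which lay in the bright patch, was 2.33 above YAP (WT) in YAP (1SA). Of the 14 monocyte genes, 11 were lower there and 3 higher, with Nr4a1 (1.79) the highest. The part of the patch in this contrast was not tested.

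Genes of lipid-laden and phagocytic macrophages had medians nearer to 0. Of 21 measured, 18 were lower in YAP (1SA) (50.3% of all genes), with a median of -0.20. At least 2-fold lower were 3 (1.14% of all genes): Spp1, or osteopontin (-1.73), Itgax, an integrin (-1.19), and Cd63, a lysosomal tetraspanin (-1.02). In YAP (2SA) 9 were higher and 12 lower, near the shares over all genes (43.6% and 56.4%). The median was -0.02, from Ctsk (-0.45), a cathepsin, to Cd36 (0.38), a lipid uptake receptor. Fabp5, a fatty acid carrier, was the highest in YAP (1SA) (0.40). Hepatocytes also express several of these, Apoe and the cathepsins among them, and the summed scaled intensity was 2199 on YAP (WT), 2115 on YAP (1SA) and 2032 on YAP (2SA).

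**Figure D4:**
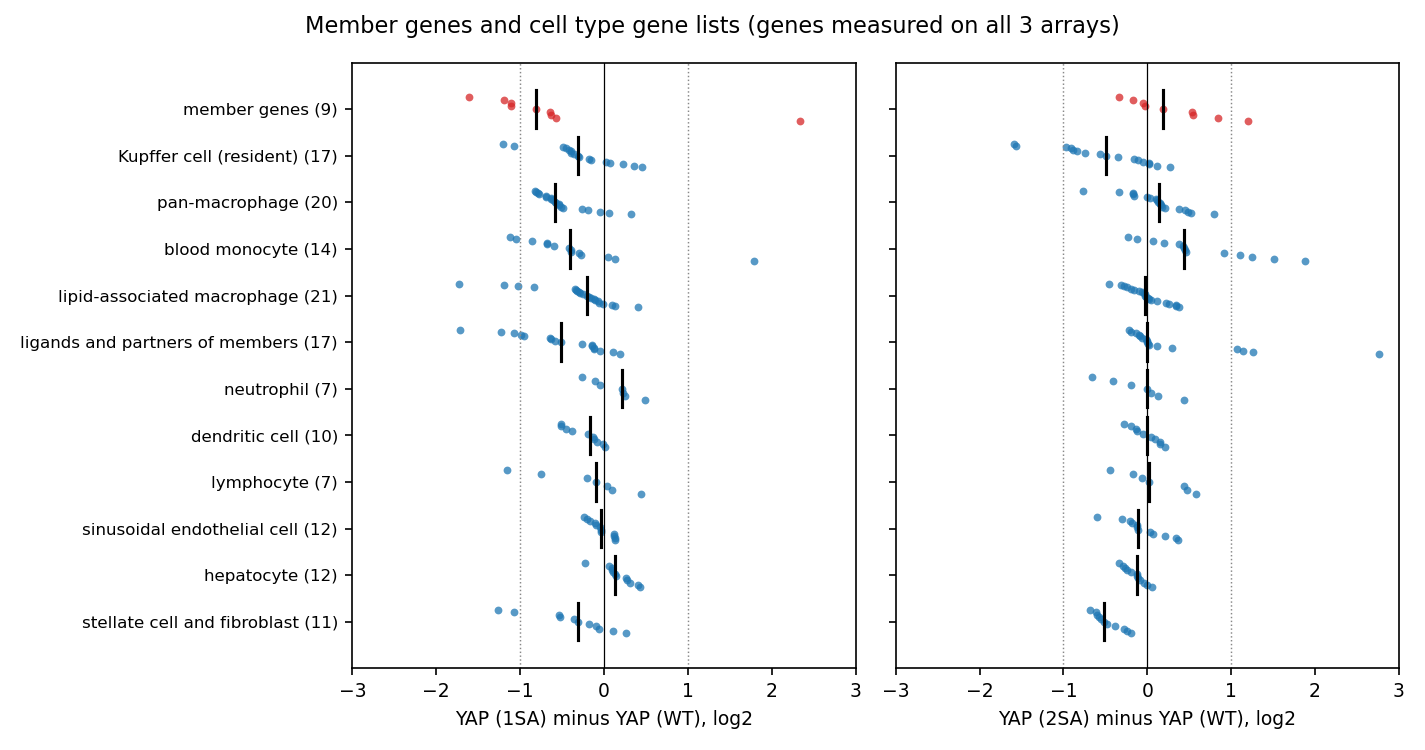
Difference from YAP (WT) in log2 for each measured gene of the member list (red) and of 11 cell type lists (blue), in YAP (1SA) on the left and YAP (2SA) on the right, with the number of genes in parentheses, the median as a black bar and dotted lines at 2-fold. Blood monocyte genes lie mostly left of 0 in YAP (1SA) and right of 0 in YAP (2SA), while Kupffer cell genes lie mostly left of 0 in both.

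Neutrophil genes had 7 of 14 measured, with medians of 0.22 and 0.0002. Their range ran from Retnlg (-0.27) to Lcn2 (0.49) in YAP (1SA) and from Retnlg (-0.66) to S100a8 (0.44) in YAP (2SA), and Cxcr2, Mmp8, Mmp9 and Ngp were not well above background on any array, while Ltf and Mpo were measured on YAP (2SA) only. Lyz2 is also made by neutrophils, and their part in its values was not tested. The summed scaled intensity of the neutrophil list was 163.0, 171.4 and 155.6, most of it from Csf3r (intensity 36349 on YAP (WT)). Dendritic cell genes (10 measured) had medians of -0.16 and -0.004, from Cd74 (-0.51) to Zbtb46 (0.02) and from Clec9a (-0.28) to H2-Aa (0.21). Their sums were 464.4, 378.3 and 463.4, and Xcr1 was not above background. Most of each sum came from Bst2 and Siglech (intensities 73868 and 51615 on YAP (WT)). The brighter Siglech probe differed by -0.02 and -0.05 and a dimmer one by -0.63 and 0.22. Lymphocyte genes (7 measured) had medians of -0.09 and 0.03, with Gzma the lowest in YAP (1SA) (-1.16) and a range from Cd4 (-0.44) to Gzma (0.59) in YAP (2SA). Their sums were 52.0, 44.9 and 42.8, and Cd8a and Ncr1 were not above background. Most of each sum came from 1 Cd4 probe (intensity 11525 on YAP (WT)). A far dimmer Cd4 probe differed by -0.18 and -0.34. Sinusoidal endothelial genes (12 measured) had medians of -0.04 and -0.11, from Stab1 (-0.24) to Gpr182 (0.14) and from Clec4g (-0.59) to Lyve1 (0.37), with sums of 101.3, 105.9 and 86.5.

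Hepatocyte genes (12 measured) went the other way from the members. In YAP (1SA) 11 of 12 were higher than in YAP (WT) (49.7% of all genes), with a median of 0.13, from Apoa1 (-0.23) to Tat (0.43). In YAP (2SA) 10 of 12 were lower (56.4% of all genes), with a median of -0.12, from Tat (-0.33) to Tdo2 (0.06). Their sums were 5283, 5875 and 4702. Of 11 measured stellate cell and fibroblast genes, 9 were lower and 2 higher in YAP (1SA) (50.3% and 49.7% of all genes). The median was -0.31, from Acta2 (-1.27) to Lrat (0.26). In YAP (2SA) all 11 were lower (56.4% of all genes), with a median of -0.51, from Col1a1 (-0.68) to Timp1 (-0.19). The sums of this list were 73.7, 60.8 and 51.7. The part of these shifts in the members' values was not tested.

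The genes nearest to the mean pattern of the 9 members over the 3 arrays, among 8246 named genes above the median signal that were in no list, were Slc38a1 (distance 0.02 in log2 units), an amino acid transporter, Ezr (0.02), which links membrane and actin, Tspan13 (0.03), a tetraspanin, and Metrnl (0.03), a secreted factor. Slc38a1 read 328.9 on YAP (WT), 202.5 on YAP (1SA) and 441.4 on YAP (2SA). A pattern over 3 arrays is met by many genes, and nothing about function follows from the likeness. The mean pattern includes the Ccr2 value of the bright patch.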

How the data were processed

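Total RNA of 3 liver samples was labelled with Cy3 and hybridised to 1-colour Agilent SurePrint G3 mouse arrays on 1 slide, with 1 array per group. The authors deposited the intensity of each spot from Feature Extraction 10.10.1.1 per the file headers, background-subtracted and detrended but not scaled between arrays. The series matrix held the same intensity times 1 constant per array. Spots marked as outliers were left out (148 to 182 per array), and no spot was saturated. Log2 intensities were averaged over the spots of a probe and the array's 75th percentile subtracted. A probe was measured when at least 50% of its spots were well above background, and 28972 to 30784 probes were. Names came from RefSeq accessions through a GRCm38.p6 gene table, which named 26762 of the 55681 probes. The design build was mm9, so the table gave names only. The brightest probe measured on all arrays stood for a gene.

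The members, the 11 gene lists and the alternatives were chosen with earlier results of these data known. Named genes were the members, the highest and lowest gene of each list, and the 4 genes with the nearest pattern by Euclidean distance of centred values. Other list genes named for their role were chosen after their values were seen. A few genes that this rule would name are not reported here. A 2-fold threshold was used. No test was possible with 1 array per group. The code was tested on simulated data. The number of arrays limits the precision. Python 3.11.15, pandas 2.3.3, numpy 2.4.6, matplotlib 3.10.9, R 4.3.3 and limma 3.58.1 were used.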

Additional observations from a re-analysis of the deposited data

Results flagged for a closer look

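The 3 genes Cx3cr1, Lyz2 and Ms4a7 were above YAP (WT) in one mutant and below it in the other by more than 0.21 on the log2 scale, which is 2 times the spot SD. Of all genes measured, 6.68% lay on opposite sides of YAP (WT) by as much. Cx3cr1 differed from YAP (WT) by -0.58 in YAP (1SA) and by 1.20 in YAP (2SA). Lyz2 differed by -0.65 and 0.55, and Ms4a7 by -1.61 and 0.53. Each value rests on 1 array per group, and whether the mutants differ was not tested.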

How the results depend on the processing

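No paired analysis was possible because a group was a single array, and neither a test nor a fit with the slide as a block was run. Of 210 single-gene values under the alternatives, 194 moved by less than the spot SD, but most of these were bound to. The filters on dim probes and the patch rule left each remaining value as it was. The mean over probes changed Cx3cr1 only. Array median and series matrix scaling shifted all genes of a comparison by 1 constant. Of the 16 values that moved, most did so with normexp. Among the 179 whose difference was above 2 times the spot SD, 0 changed sign, which for the same reason says little about robustness. In YAP (1SA), 8 of 9 members were below YAP (WT) with each other scaling, background correction and probe rule tried, and 7 of 8 with the stricter filter on dim probes. With normexp the median was -0.62 in YAP (1SA) and 1.03 between the mutants. No gene was then 2-fold higher in YAP (2SA) than in YAP (WT), in place of 1 (background 0.455%, in place of 1.12%). In YAP (1SA), 3 genes were 2-fold lower with normexp, in place of 4 (background 0.352%). The stricter filter, which left out Mmp12, gave a YAP (2SA) median of 0.36. At a 3-fold threshold 1 gene was higher (Ccr2, background 0.191%) and 1 lower (0.213%) in YAP (1SA), 0 were higher in YAP (2SA) (0.25%), and between the mutants 2 were higher (0.631%) and 0 lower (0.25%). Leaving out probes in bright patches, an alternative chosen after seeing the data, removed Ccr2. It gave medians of -0.96 and 0.085, with 0 genes 2-fold higher in YAP (1SA) than in YAP (WT) (background 0.669%). Between the mutants, 0 were 2-fold lower in YAP (2SA) (background 1.07%). The background share lower by 2-fold in YAP (1SA) was 1.14%, and 0.352% with normexp and 3.89% with no filter on dim probes, where 4 members were lower. With normexp the difference in YAP (1SA) was 1.83 for Ccr2 and -0.62 for Mmp12. The cause was not tested.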
